A study of Homo sapiens with 12 samples.

Results

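The genes described are the Cap'n'collar (CNC) transcription factors and the proteins that restrain, compete with or pair with them: NFE2L1, NFE2L2 and NFE2L3, which encode NRF1, NRF2 and NRF3, the NRF2 inhibitor KEAP1, the autophagy receptor SQSTM1, the repressors BACH1 and BACH2, and the small MAF proteins MAFG, MAFK and MAFF. They were taken by symbol, with no threshold on their values, and all 10 are present among the 38019 genes of the deposited count table. RNA was sequenced from HEK293T cells, which derive from human embryonic kidney, 24 h after transient FuGENE transfection of empty vector or of a plasmid for NRF1, NRF2 or NRF3. Each of these 4 groups has 3 libraries, 12 in all, from independent experiments by the labels. The comparisons ask how each factor alters transcripts of its own family and of the proteins that control it. The NRF2 transgene is a FLAG-tagged reference coding sequence carrying the mutation T80D, which was introduced to weaken its contact with KEAP1, and the NRF1 and NRF3 transgenes are FLAG-tagged, codon-optimized and shortened at the amino terminus so that they bypass the endoplasmic reticulum. All 4 groups share the cell line and the transfection reagent, and the 3 transgenes share a plasmid backbone, while that of the empty vector is not given in the sources used here. Each library is an average over transfected and untransfected cells, so a larger share of responding cells and a larger change per cell cannot be told apart.

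CNC factors bind antioxidant response elements (AREs) in DNA as heterodimers with a small MAF protein, which carries a DNA-binding domain but no activation domain. In unstressed cells KEAP1 presents NRF2 to a CUL3 ubiquitin ligase for destruction, and oxidants or electrophiles that modify KEAP1 spare NRF2, which then induces genes of glutathione synthesis, quinone reduction and NADPH supply. SQSTM1 binds KEAP1 and can carry it into autophagosomes, whereas BACH1 and BACH2 occupy the same elements with small MAF partners as heme-sensitive repressors. NRF1 and NRF3 are instead anchored in the endoplasmic reticulum, and NRF1 is best known for inducing proteasome genes when the proteasome is inhibited.

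Total counts per library were 13452524 to 14014316, and a level is given as CPM, the counts per 1000000 counts of a library after TMM scaling (trimmed mean of M values). The 10 marker genes listed for HEK293T cells all had a median of at least 1 CPM, from 1.67 for PAX2 to 443 for VIM. The 16 markers of blood, fibroblasts, endothelium, liver, other epithelium and mature kidney summed to 18.9 to 22.1 CPM with empty vector, 15.0 to 21.1 with NRF3, 18.6 to 21.2 with NRF1 and 18.2 to 21.9 with NRF2, and 4 of the 16 had a median of at least 1 CPM. These were COL1A1 at 13.6 (8.24 to 16.0 over the 12 libraries), CD68 at 2.59, CDH1 at 1.35 and LUM at 1.24, while CDH5 and UMOD were at 0 in every library. PAX2 and LHX1, listed for HEK293T cells, had medians of 1.67 and 2.99 and thus lay below COL1A1. The spread between libraries differed among the groups. The median SD of log2 CPM over the tested genes was highest with NRF3, at 0.187, and lowest in the controls, at 0.0884, with 0.105 for NRF1 and 0.122 for NRF2.

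Upstream sequences are shown for 3 of the genes that rose with NRF2, because KEAP1 and BACH1 hold motif matches there and MAFG holds none. RefSeq promoter windows of 300 bases on build GRCh38.p14, which run from 250 bases before a transcription start, matched 9 of the 10 symbols in 17 windows, and MAFK had no entry. The 250 bases before the start are printed 5′ to 3′ on the strand of the gene, and capitals mark matches. The motifs searched on both strands were the ARE core TGACNNNGC, the AP-1 site TGAGTCA, and the NF-E2 site, which is an AP-1 site preceded by TGC.
KEAP1, second of its 2 windows, chr19:10502772-10503021, minus strand: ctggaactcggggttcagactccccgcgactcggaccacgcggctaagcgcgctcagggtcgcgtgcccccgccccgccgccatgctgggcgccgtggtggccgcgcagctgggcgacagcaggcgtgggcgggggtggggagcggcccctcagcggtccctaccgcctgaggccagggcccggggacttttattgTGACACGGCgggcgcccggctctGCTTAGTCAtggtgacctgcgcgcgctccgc
BACH1, second of its 3 windows, chr21:29298672-29298921, plus strand: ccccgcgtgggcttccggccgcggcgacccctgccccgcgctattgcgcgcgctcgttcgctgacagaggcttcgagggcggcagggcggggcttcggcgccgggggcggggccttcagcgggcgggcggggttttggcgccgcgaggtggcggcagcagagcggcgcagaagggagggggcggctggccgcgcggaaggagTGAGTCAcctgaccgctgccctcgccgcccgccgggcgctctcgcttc
MAFG, its only window, chr17:81927736-81927985, minus strand: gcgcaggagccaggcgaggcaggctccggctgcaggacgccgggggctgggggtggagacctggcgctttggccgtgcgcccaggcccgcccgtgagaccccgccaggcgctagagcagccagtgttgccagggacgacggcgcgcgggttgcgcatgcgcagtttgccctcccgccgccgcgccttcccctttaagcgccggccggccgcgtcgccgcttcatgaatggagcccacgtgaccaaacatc
The KEAP1 window holds a pair of ARE core matches, TGACACGGC at positions -54 to -46 from the start and, read on the opposite strand, GCTTAGTCA at -31 to -23. The BACH1 window holds a single TGAGTCA at -48 to -42. A further ARE core match lies in a window of MAFF, GCGGGGTCA on the opposite strand at -122 to -114. The 3 SQSTM1 windows, the MAFG window and the remaining windows hold no match to these letters. The ARE core is present in 13.3% of all 35116 promoter windows, the AP-1 site in 4.95% and the NF-E2 site in 0.154%, and a match here is a description of letters only.

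Transcripts of 4 genes around NRF2 rose with the NRF2 transgene. SQSTM1 rose 2.41-fold, KEAP1 1.96-fold, MAFG 2.79-fold and BACH1 1.73-fold over empty vector, whereas NFE2L1, NFE2L3, BACH2 and MAFK did not pass the test. With NRF2, 5 of the 9 tested genes were therefore higher, one of them NFE2L2, whose counts include reads of the plasmid, at an adjusted p under 0.05 in the quasi-likelihood test of edgeR adjusted by the Benjamini-Hochberg procedure, against 4.68% of the 15135 tested genes called higher, 5.81% called lower and 10.5% called in either direction. The median log2 fold change of the 9 genes was 0.79, beside a median of 0.0025 over all tested genes. The 9 values include that of NFE2L2, which holds the plasmid reads. MAFF had too few counts to be tested, and each of the other 9 genes had at least 26 counts in every library. Neither NRF1 nor NRF3 gave a call among these genes. The 3 comparisons with empty vector share the same 3 control libraries.

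**Figure D1:**
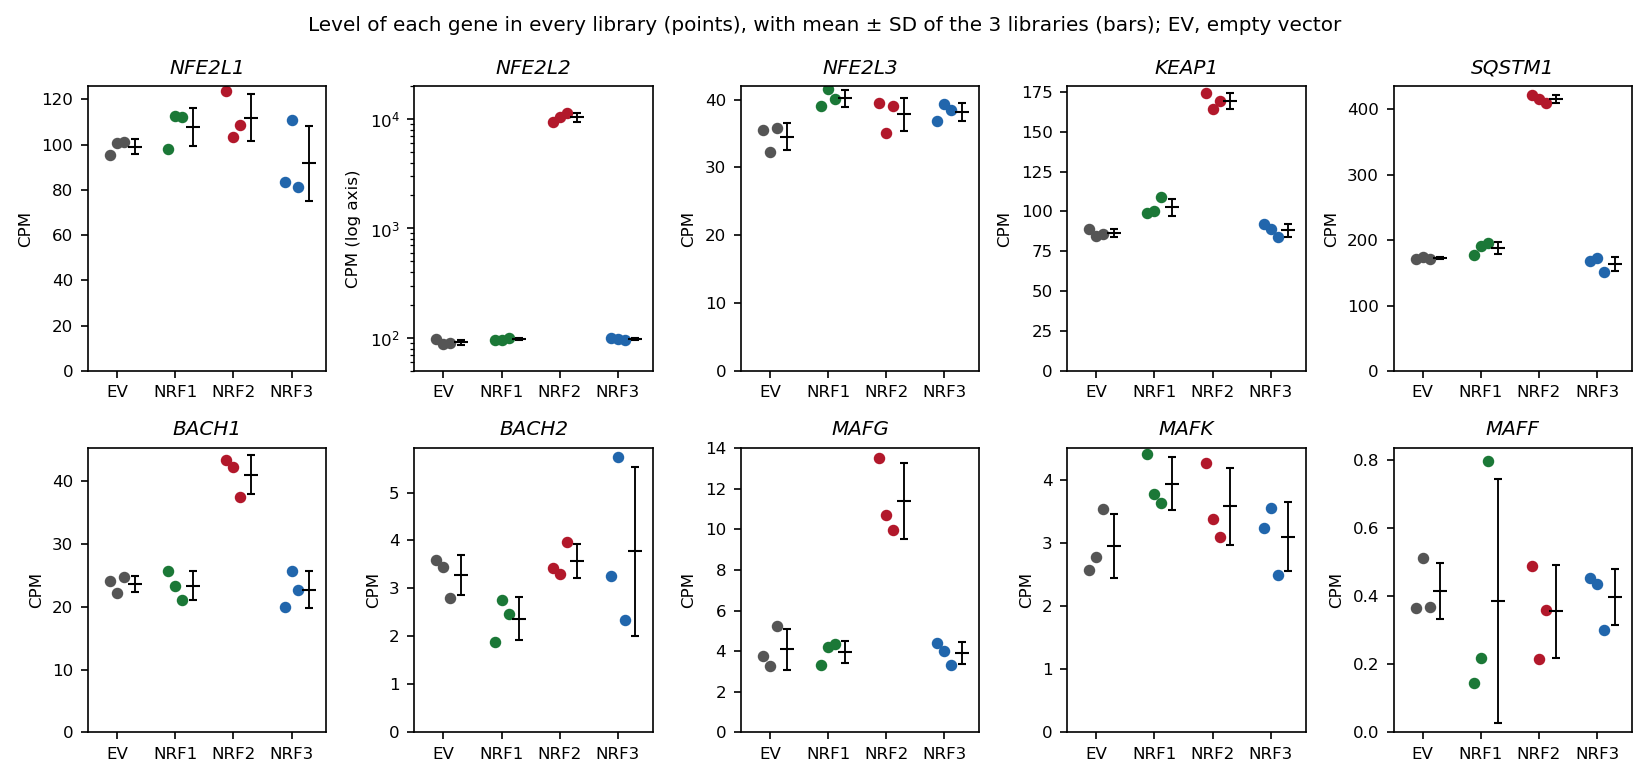
Level of each gene in CPM (vertical axis; logarithmic for NFE2L2 only) in the 12 libraries, grouped by transgene. Points are libraries, and bars give the mean ± SD of 3 libraries. The NRF2 libraries lie above all others for NFE2L2, KEAP1, SQSTM1, BACH1 and MAFG.

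The transfected factors were examined first. NFE2L2, the gene of NRF2, had 1322, 1211 and 1210 counts in the empty vector libraries, 1317, 1327 and 1367 with NRF1, 1317, 1349 and 1272 with NRF3, and 133115, 143786 and 158028 with NRF2. The NRF2 libraries stood far apart, and the other 9 libraries overlapped. The mean level went from 91.7 ± 4.74 CPM (SD, n = 3 libraries) to 10363 ± 1051 CPM, a log2 fold change of 6.82 (adjusted p = 2.58e-17, standard error 0.10), and NFE2L2 alone took 0.950 to 1.14% of all counts in these libraries. Because the NRF2 plasmid carries the reference coding sequence, its reads are counted under NFE2L2, and transcripts of the cell's own gene cannot be told apart from them.

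With the other transgenes NFE2L2 moved by less than the test resolves. Its log2 fold change was 0.08 with NRF1 (95% interval -0.09 to 0.25, adjusted p = 0.640) and 0.10 with NRF3 (-0.07 to 0.26, adjusted p = 0.994). Within the 95% intervals, any change of NFE2L2 with NRF1 or NRF3 was thus smaller than that of KEAP1, SQSTM1, MAFG or BACH1 with NRF2.

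NFE2L1, which encodes NRF1, was not raised in the table by its own transgene. It had 95.3, 100.5 and 101 CPM with empty vector and 98.1, 112.5 and 112.3 CPM with NRF1, so the groups overlapped, with a log2 fold change of 0.12 (95% interval -0.10 to 0.34, adjusted p = 0.602). With NRF2 it had 123.4, 103 and 108 CPM, and all 3 libraries lay above those of empty vector, but the log2 fold change of 0.17 (95% interval -0.05 to 0.40) did not pass the test (adjusted p = 0.333). With NRF3 the libraries were at 83.5, 111 and 81.0 CPM, on both sides of the controls. By Western blot for the FLAG tag, the study reports similar protein levels of the NRF1, NRF2 and NRF3 transgenes. Whether reads of the codon-optimized NRF1 sequence are counted under NFE2L1 was not tested.

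NFE2L3, which encodes NRF3, showed narrow groups. Its levels were 35.5, 32.3 and 35.8 CPM with empty vector, 39.1, 41.5 and 40.0 with NRF1, 39.5, 35.05 and 39.0 with NRF2, and 36.8, 39.3 and 38.4 with NRF3. The NRF1 and NRF3 libraries all lay above the controls, and those of NRF2 overlapped them. None of these differences was called by edgeR, with log2 fold changes of 0.22 for NRF1 (adjusted p = 0.162, standard error 0.08), 0.13 for NRF2 (adjusted p = 0.320) and 0.15 for NRF3 (adjusted p = 0.994). With NRF1, 2 of 22 alternatives, limma voom and a fit of the compared groups alone, called it, and the adjusted p was 0.0117 to 0.421 over all 22. Reads of the codon-optimized NRF3 sequence may be counted elsewhere, which was not tested.

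KEAP1, the sensor that holds NRF2 at low abundance, was clearly separated between empty vector and NRF2. Its level was 89.2, 84.7 and 85.7 CPM with empty vector and 174, 165 and 169 CPM with NRF2. The means were 86.5 ± 2.36 and 169 ± 4.80 CPM (SD, n = 3 libraries), and the log2 fold change was 0.97 (adjusted p = 4.73e-08, standard error 0.07). By size it was rank 151 among the 15135 tested genes. Over 22 alternatives in processing or in the libraries used, KEAP1 kept its call with NRF2 in each, with a log2 fold change of 0.94 to 0.99.

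With NRF1, KEAP1 lay close to the threshold. The 3 libraries had 99.1, 100.2 and 109 CPM, each above every control, for a log2 fold change of 0.25 (standard error 0.07, 95% interval 0.11 to 0.39, adjusted p = 0.0675). The call depended on the fit: 6 of 22 alternatives placed it under 0.05, namely DESeq2, limma voom with sample weights, a fit of the compared groups alone, the fits without NRF3 replicate 2 or NRF3 replicate 3, and the fit without any NRF3 library, and over all 22 the adjusted p was 0.00314 to 0.330. With NRF3, KEAP1 was at 91.8, 88.9 and 83.8 CPM, on both sides of the controls, with a log2 fold change of 0.03 (95% interval -0.11 to 0.17).

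SQSTM1, the receptor that delivers KEAP1 and other cargo to autophagosomes, had 172, 175 and 172 CPM with empty vector and 422, 415 and 409 CPM with NRF2, so that the NRF2 libraries differed among themselves by far less than from the controls. The mean rose from 173 ± 1.80 to 415 ± 6.56 CPM, a log2 fold change of 1.27 (adjusted p = 1.49e-09, standard error 0.07), the 82nd largest among tested genes. With NRF1 its libraries were at 178, 191 and 195 CPM, all above the controls, but the difference of 0.12 on the log2 scale was not called (adjusted p = 0.348), and 1 of 22 alternatives, limma voom, called it. With NRF3 they were at 168, 172 and 152 CPM, and the groups overlapped (log2 fold change -0.07, adjusted p = 0.994).

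The balance between SQSTM1 and its binding partner KEAP1 moved as well. SQSTM1 had 1.93, 2.06 and 2.00 counts per KEAP1 count with empty vector, 1.79, 1.91 and 1.79 with NRF1, 1.83, 1.94 and 1.81 with NRF3, and 2.42, 2.52 and 2.42 with NRF2. The NRF2 libraries were above all others, those of NRF1 were below all controls, and those of NRF3 overlapped both NRF1 and empty vector. These ratios are of counts of genes of different length and were given no test.

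BACH1, the heme-regulated repressor of AREs, rose with the activator NRF2. Its level was 24.0, 22.3 and 24.7 CPM with empty vector, 25.7, 23.3 and 21.0 with NRF1, 19.9, 25.7 and 22.6 with NRF3, and 43.3, 42.2 and 37.5 with NRF2. The NRF2 libraries lay clear of the other 9, which overlapped. The log2 fold change was 0.79 (adjusted p = 0.000111, standard error 0.10) with NRF2, and it was -0.02 with NRF1 (95% interval -0.25 to 0.21) and -0.06 with NRF3 (95% interval -0.29 to 0.17).

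BACH2, the lymphoid relative of BACH1, was scarce, at 49, 47 and 38 counts with empty vector. It had 26, 38 and 34 counts with NRF1, 49, 46 and 55 with NRF2, and 43, 79 and 31 with NRF3. In CPM the NRF1 libraries were all below the controls, while those of NRF2 and NRF3 overlapped them. The log2 fold changes were -0.47 with NRF1 (adjusted p = 0.404, standard error 0.28), 0.12 with NRF2 (adjusted p = 0.819) and 0.21 with NRF3 (adjusted p = 0.994). The 95% interval with NRF2 ran from -0.42 to 0.67 and overlaps that of BACH1, 0.58 to 1.01, and the difference between these genes was not tested.

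Among the small MAF partners only MAFG was called. It had 51, 45 and 71 counts with empty vector, 46, 58 and 60 with NRF1, 58, 55 and 44 with NRF3, and 193, 149 and 138 with NRF2. The NRF2 libraries were the highest, and the lowest of them lay well above the highest control. The level rose from 4.09 ± 1.01 to 11.4 ± 1.86 CPM, a log2 fold change of 1.48 (adjusted p = 4.35e-05, standard error 0.18), rank 67 of the tested genes by size. With NRF1 and NRF3 the log2 fold changes of MAFG were -0.04 and -0.07, with 95% intervals of -0.47 to 0.38 and -0.49 to 0.36.

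MAFK, a paralog with the same partners, had 35, 38 and 48 counts with empty vector, 61, 52 and 50 with NRF1, 61, 47 and 43 with NRF2, and 43, 49 and 33 with NRF3. In CPM the NRF1 libraries were all above the controls and the other groups overlapped them. The log2 fold change was 0.41 with NRF1 (adjusted p = 0.278, standard error 0.19), 0.28 with NRF2 (95% interval -0.13 to 0.68, adjusted p = 0.410) and 0.07 with NRF3 (adjusted p = 0.994). The interval with NRF2 lies below that of MAFG, which ran from 1.11 to 1.85, and the difference between these genes was not tested.

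MAFF, the stress-inducible small MAF, had only 2 to 11 counts per library. The sums over 3 libraries were 17 counts with empty vector (exact 95% Poisson interval 9.90 to 27.2), 16 with NRF1, 15 with NRF2 and 16 with NRF3, intervals that cover counting error only. Without a filter on low counts its log2 fold change with NRF2 was -0.22 (adjusted p = 0.926), and a change of MAFF was not detectable at this depth.

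Summed over the 3 small MAF genes, the level was 13.4 to 18.3 CPM with NRF2, beside 6.59 to 9.14 in the controls, 7.90 to 8.80 with NRF1 and 6.12 to 8.09 with NRF3. MAFG made up 50 to 57.3% of this sum with empty vector and 73.9 to 74.9% with NRF2. The NRF2 libraries were thus higher in both the sum and the MAFG share than any other library.

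Among the NRF2 libraries, the level of the transgene and of the genes that rose with it did not run in parallel. Replicate 1 had the lowest NFE2L2 level, 9319 CPM, and the highest levels of SQSTM1, KEAP1, BACH1 and MAFG, whereas replicate 3 had the highest NFE2L2 level, 11421 CPM, and the lowest SQSTM1, BACH1 and MAFG. The number of libraries does not allow a test of this order.

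**Figure D2:**
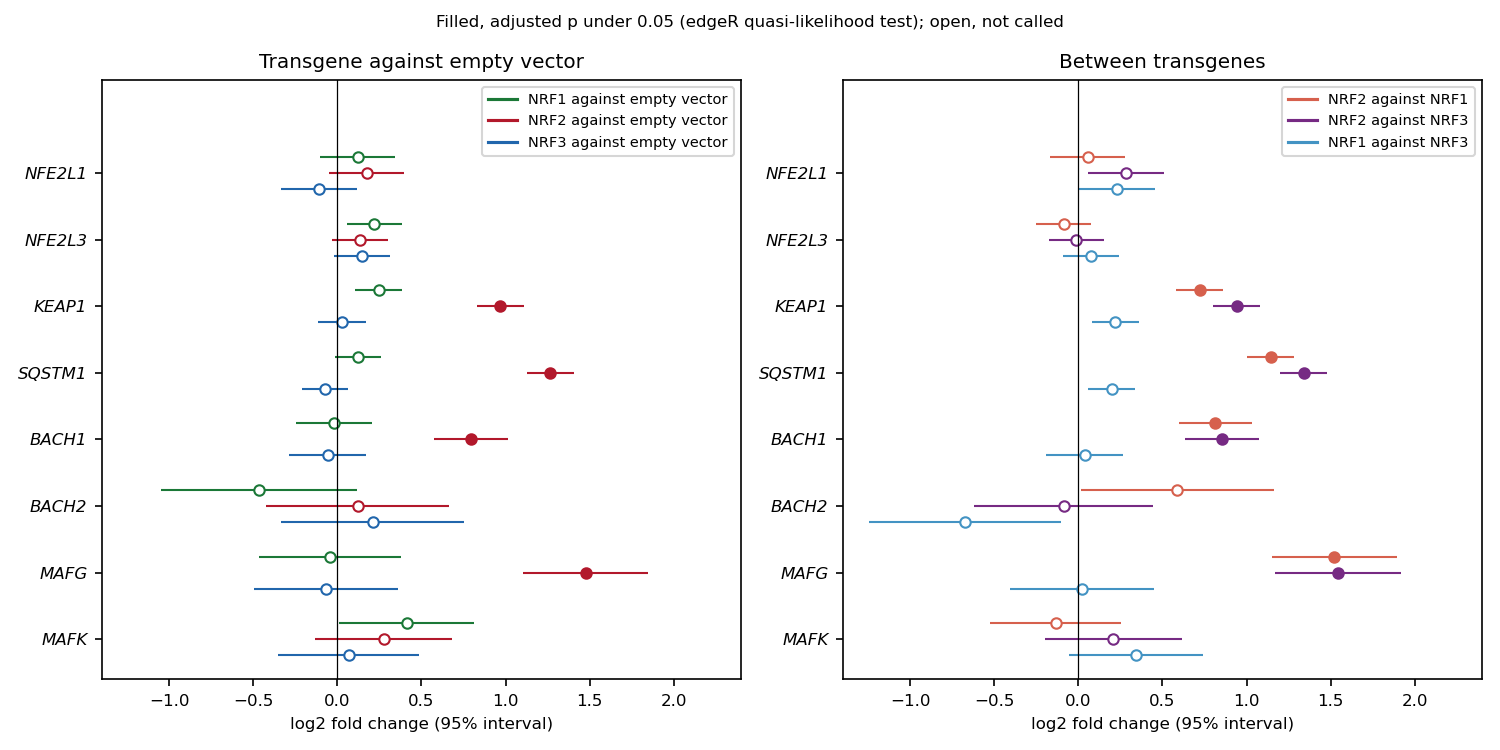
Log2 fold change (horizontal axis) of 8 genes in the comparisons with empty vector (left) and between transgenes (right), with 95% intervals as lines. Filled points passed an adjusted p of 0.05, which only KEAP1, SQSTM1, BACH1 and MAFG did, each in the comparisons that involve NRF2; NFE2L2 lies outside the axis, at 6.82 for NRF2 against empty vector, and MAFF was not tested.

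With NRF1, 0 of the 9 tested genes were called by edgeR, against 1.75% of all tested genes, of which 0.238% were higher and 1.51% lower. Unadjusted p-values were under 0.05 for 3 genes, KEAP1, NFE2L3 and MAFK, as for 17.4% of all tested genes. The share of all genes called was itself unstable, since 33 to 589 genes in place of 265 were called with each library left out in turn, 33 without NRF1 replicate 3 and 589 without NRF3 replicate 2. DESeq2 called 1 gene and limma voom 3, under fits that called 427 and 2881 of all genes. Groups did not overlap for 4 genes that were higher, KEAP1, NFE2L3, MAFK and SQSTM1, and for BACH2, which was lower, where 15% and 15.9% of all tested genes had non-overlapping groups in these directions. With NRF3, 0 genes were called by edgeR, by DESeq2 or by limma voom, 0 had an unadjusted p under 0.05, beside 4.11% of all tested genes, and only 0.0264% of all tested genes were called, 0.0198% higher and 0.00661% lower. NFE2L3 alone had groups that did not overlap, higher with NRF3, as did 3.95% of all genes. With NRF2 the groups of 6 genes did not overlap, the 5 called genes and NFE2L1, against 17.8% of all genes.

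The direct comparisons tested whether NRF2 differed from the other factors. The same 5 genes, NFE2L2, KEAP1, SQSTM1, BACH1 and MAFG, were higher with NRF2 than with NRF1, where 1.04% of all genes were called higher, and than with NRF3, where 2.42% were. The 5 include NFE2L2, the transfected gene, whose counts with NRF2 hold reads of the plasmid. In either direction, 782 genes were called between NRF2 and NRF3, but 354 to 3086 with each library left out, 354 without NRF3 replicate 1 and 3086 without NRF3 replicate 2. SQSTM1 had a log2 fold change of 1.14 over NRF1 (adjusted p = 6.84e-09, standard error 0.07) and 1.34 over NRF3 (adjusted p = 7.81e-10). KEAP1 had 0.72 over NRF1 (adjusted p = 2.71e-06, standard error 0.07) and 0.94 over NRF3 (adjusted p = 8.97e-08). The differences of these genes between NRF2 and the other transgenes were therefore tested directly and do not rest on a call in one comparison and its absence in another.

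MAFG differed by 1.52 from NRF1 (adjusted p = 4.76e-05, standard error 0.18) and by 1.54 from NRF3 (adjusted p = 3.72e-05). BACH1 differed by 0.81 from NRF1 (adjusted p = 0.000155, standard error 0.10) and by 0.85 from NRF3 (adjusted p = 7.06e-05). All 5 genes kept their call in the 22 alternatives against empty vector and against NRF1 and in the 21 against NRF3. Groups did not overlap for 6 genes against NRF1, the called genes and BACH2, and for 5 against NRF3, beside 10% and 9.74% of all genes in the same direction.

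Between NRF1 and NRF3, 0 of the 9 genes were called by edgeR, against 0.396% of all genes (60 genes, but 4 to 1346 with each library left out in turn, highest without NRF3 replicate 2), although unadjusted p-values were under 0.05 for 4 genes, KEAP1, SQSTM1, NFE2L1 and BACH2, and for 11.7% of all genes. KEAP1 was 0.22 higher with NRF1 on the log2 scale (95% interval 0.08 to 0.36, adjusted p = 0.214) and SQSTM1 0.20 higher (95% interval 0.06 to 0.34, adjusted p = 0.268). Groups did not overlap for KEAP1, SQSTM1 and MAFK, all higher with NRF1, as for 5.34% of all genes. DESeq2 called 0 genes, whereas limma voom, and likewise edgeR without NRF3 replicate 2, called NFE2L1 and SQSTM1, under fits that called 7.96% and 8.77% of all genes.

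Per unit of transcript length, the factors and their regulators covered a wide range in cells with empty vector. Counts per kb of the longest coding transcript averaged 787 for SQSTM1, 437 for NFE2L2, 399 for KEAP1, 282 for NFE2L1, 128 for NFE2L3, 55.8 for BACH1, 12 for MAFK, 11 for MAFG, 4.90 for BACH2 and 2.28 for MAFF. NFE2L2 and KEAP1 were close but did not overlap, at 424 to 463 and 392 to 411 counts per kb. MAFK and MAFG overlapped, at 10.4 to 14.3 and 8.93 to 14.1, and changed places with the median transcript length, where MAFG averaged 16.4. The small MAF transcripts were thus far scarcer per length than KEAP1 or the 3 CNC factors on either measure of length.

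**Figure D3:**
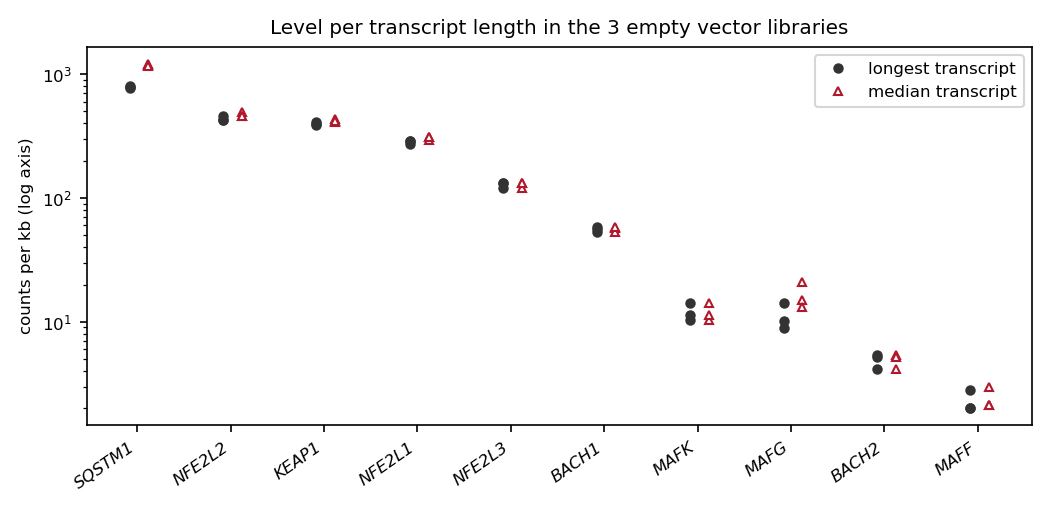
Counts per kb of transcript (logarithmic vertical axis) of the 10 genes in the 3 empty vector libraries, ordered by mean; circles use the longest and triangles the median coding transcript of a later annotation. SQSTM1 is highest, at 780 to 799 counts per kb of the longest transcript, and MAFF lowest, at 2.01 to 2.81.

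The counts of the related lists that follow are read against the 10.5% of all tested genes called in either direction with NRF2, the 1.75% with NRF1 and the 0.0264% with NRF3, and a count near these shares is no result about a list. Of 20 genes that control KEAP1 and NRF2 (ubiquitin ligase subunits, kinases and competitors for KEAP1 binding), 1 was higher and 1 lower with NRF2, and 0 were called by edgeR with NRF1 or NRF3, where 3 and 1 had an unadjusted p under 0.05. Over all genes 17.4% and 4.11% had one. The median log2 fold change of this list was 0.03 with NRF2, 0.05 with NRF1 and -0.0076 with NRF3, beside medians over all genes of 0.0025, -0.0056 and 0.0027. CDKN1A, the cell cycle inhibitor p21, which competes with KEAP1 for NRF2, had 12.8, 11.9 and 11.6 CPM with empty vector and 17.0, 17.2 and 14.6 with NRF2. The groups did not overlap, with a log2 fold change of 0.43 (adjusted p = 0.0147, standard error 0.10), a call that was lost when empty vector replicate 2 or 3 or NRF2 replicate 1 or 2 was left out. In direct edgeR tests CDKN1A was higher with NRF2 than with NRF3 (0.66, adjusted p = 0.00121) but not called against NRF1 (0.36, adjusted p = 0.125).

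IKBKB, a kinase whose protein is a KEAP1 substrate, went from 49.8, 46.3 and 45.04 CPM to 37.4, 40.1 and 35.9 with NRF2. All NRF2 libraries were lower, with a log2 fold change of -0.32 (adjusted p = 0.0470, standard error 0.10), and the call was lost when any 1 library of either group, NRF1 replicate 2 or NRF1 replicate 3 was left out (adjusted p up to 0.179). With NRF1 the log2 fold change of IKBKB was -0.20 (adjusted p = 0.303). In direct edgeR tests NRF2 was not called different from NRF1 (-0.12, adjusted p = 0.740) or from NRF3 (-0.25, adjusted p = 0.146). CUL3, RBX1, the GSK3 and beta-TrCP genes and the other members of this list were not called by edgeR in a comparison with empty vector, but over the alternatives 0 to 6 genes of the list were called with NRF2 and likewise 0 to 6 with NRF1.

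Of 11 partners and control genes of NRF1 and the BACH factors, such as the protease gene DDI2 and the glycanase gene NGLY1, 1 was lower with NRF2 (0 to 3 called over the alternatives) and 0 were called by edgeR with NRF1 (0 to 2) or NRF3 (0 in each), where 2 and 0 had an unadjusted p under 0.05. HMMR, a hyaluronan receptor that binds BACH1, had 102, 101 and 84.8 CPM with empty vector and 75.9, 78.3 and 68.5 with NRF2. Its log2 fold change was -0.37 (adjusted p = 0.0256, standard error 0.10), and the call was lost in 5 of 22 alternatives, among them the replicate block and the fits without empty vector replicate 1 or 2 or NRF2 replicate 1 or 3. With NRF1 HMMR had 86.8, 78.8 and 78.6 CPM and a log2 fold change of -0.23 (adjusted p = 0.236). In direct edgeR tests NRF2 was not called different from NRF1 (-0.13, adjusted p = 0.701) or from NRF3 (-0.33, adjusted p = 0.0663). The median log2 fold change of this list was 0.10 with NRF2, 0.07 with NRF1 and -0.05 with NRF3.

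Autophagy receptors and ATG8 genes, the relatives and docking partners of SQSTM1, had 13 of 15 members tested. With NRF2 1 was higher (0 to 3 called over the alternatives), and with NRF1 (0 to 1) and NRF3 (0 in each) 0 were called by edgeR, where 1 and 0 had an unadjusted p under 0.05. GABARAPL1, an ATG8 protein of the autophagosome membrane, had 6.10, 7.76 and 7.59 CPM with empty vector and 11.5, 12.2 and 11.6 with NRF2. The NRF2 libraries stood apart, with a log2 fold change of 0.72 (adjusted p = 0.00959, standard error 0.16), a call lost only without empty vector replicate 1 among 22 alternatives. In direct edgeR tests GABARAPL1 was higher with NRF2 than with NRF3 (0.72, adjusted p = 0.0152) but not called against NRF1 (0.60, adjusted p = 0.0903). The median log2 fold change of the list was 0.12 with NRF2, 0.03 with NRF1 and 0.04 with NRF3.

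Of 5 further CNC and large MAF relatives, 4 were tested, and NFE2, the blood cell member of the CNC family, had too few counts. MAF, a large MAF protein that carries its own activation domain, had 46.5, 48.8 and 53.4 CPM with empty vector, 35.3, 34.8 and 34.7 with NRF1, 33.3, 34.5 and 33.7 with NRF2, and 45.2, 49.2 and 43.3 with NRF3. The NRF1 and NRF2 libraries were below all controls and those of NRF3 overlapped them. The log2 fold change of MAF was -0.50 with NRF1 (adjusted p = 0.00426, standard error 0.08) and -0.55 with NRF2 (adjusted p = 0.000235), comparisons that share the control libraries, and both calls held in 22 of 22 alternatives. In direct tests MAF was also lower with NRF1 than with NRF3 (-0.39, adjusted p = 0.0396) and with NRF2 than with NRF3 (-0.44, adjusted p = 0.00267). The first of these calls was lost in 12 of 21 alternatives (adjusted p up to 0.296), among them the replicate block and every fit without 1 empty vector or NRF1 library or without NRF3 replicate 1, and the second held in 21 of 21, while NRF1 and NRF2 were not called different (adjusted p = 0.893). NRL was not called, nor was MAFA, at 0.53 with NRF1 (adjusted p = 0.227).

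For reference, 19 of 20 canonical ARE target genes were tested, and 17 were higher with NRF2, 2 with NRF1 and 2 with NRF3, none lower, and over the alternatives 16 to 18, 2 to 5 and 1 to 2 were called. The median log2 fold change of this list was 1.42 with NRF2, 0.16 with NRF1 and 0.07 with NRF3. OSGIN1, an oxidative stress growth inhibitor at a mean of only 0.661 CPM with empty vector, had the largest change of this list with NRF2. It changed by 6.51 on the log2 scale (adjusted p = 6.6e-14), and TXNRD1, the cytosolic thioredoxin reductase, changed by 2.26 (adjusted p = 3.92e-13). KEAP1, SQSTM1 and BACH1 thus had log2 fold changes below the median of these targets and MAFG one just above it.

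**Figure D4:**
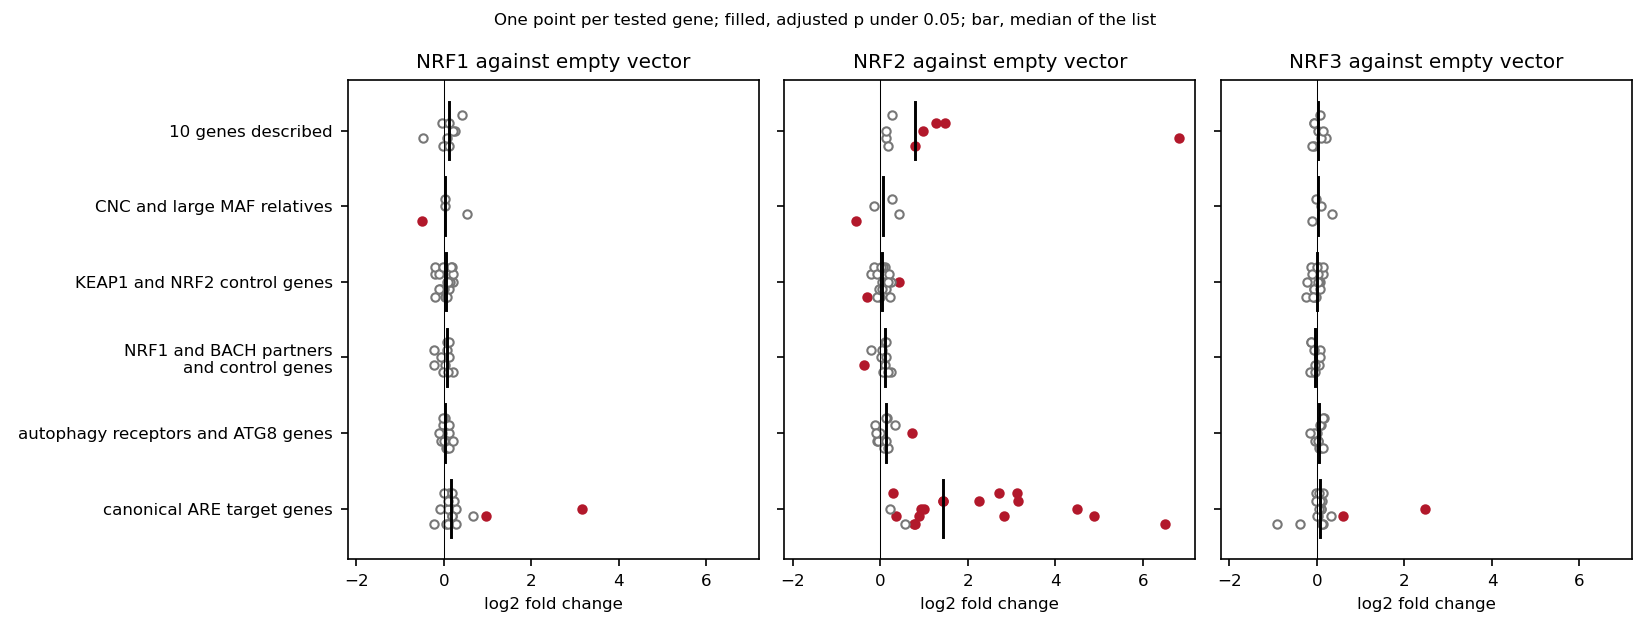
Log2 fold change over empty vector (horizontal axis) of every tested gene of the 10 genes described and of 5 related gene lists, 1 panel for each transgene; filled points passed an adjusted p of 0.05 and bars are medians. With NRF2 the medians are 0.79 for the genes described and 1.42 for the ARE targets, and between 0.03 and 0.12 for the other lists. The median of 0.79 includes NFE2L2, whose counts hold plasmid reads.

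The genes whose profile over the 12 libraries was most like that of each called gene were found by the root mean square difference of log2 CPM, centred on the empty vector mean. Nearest to KEAP1 were UGDH, UDP-glucose dehydrogenase, at 0.0530, PGD of the pentose phosphate pathway at 0.0706 and GPX3, a secreted glutathione peroxidase, at 0.0732. Nearest to SQSTM1 were FTL, the ferritin light chain, at 0.144, the ferroptosis suppressor AIFM2 at 0.145 and GPX3 at 0.1496. The NRF2 log2 fold changes of these genes were 0.91 for UGDH, 0.88 for PGD, 1.08 for GPX3, 1.44 for FTL and 1.29 for AIFM2, close to those of KEAP1 and SQSTM1 by the choice itself.

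Nearest to MAFG were GSR, glutathione reductase, at 0.235, FTL at 0.237 and ME1, malic enzyme, at 0.249. Nearest to BACH1 were NSUN3, a mitochondrial RNA methyltransferase, at 0.146, GCLC, the catalytic subunit of glutathione synthesis, at 0.146 and FAM83G at 0.151. GSR rose by 1.52 with NRF2 on the log2 scale and GCLC by 0.79. No gene came near NFE2L2, the closest being OSGIN1 at 0.560, F2RL2 at 0.637 and LUCAT1 at 0.733, and the counts of NFE2L2 in the NRF2 libraries include reads of the plasmid. With empty vector OSGIN1, F2RL2 and LUCAT1 had means of 0.661, 0.0978 and 0 CPM, beside 91.7 for NFE2L2, so these distances rest on very low counts.

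Genes that share sequence with the genes described or lie within 1 kb of them were compared with them, since the sources do not state whether counting used strand. MAFG-AS1, by its older annotation a non-coding RNA within 1 kb of MAFG on the opposite strand, was named after its values were seen. Its level was 8.55 CPM with empty vector and 12.3 with NRF2, a log2 fold change of 0.52 (adjusted p = 0.0122, standard error 0.12) that lost its call when empty vector replicate 1, empty vector replicate 3 or NRF2 replicate 2 was left out, and it was -0.08 with NRF1 and -0.26 with NRF3, neither called. This symbol has also been given to a second RNA of the MAFG locus, and which of them is counted is not given in the sources used here. C5orf45, also named MRNIP, shares 1384 exon bases with SQSTM1 on the opposite strand and had a log2 fold change of 0.17 with NRF2 (adjusted p = 0.392), beside 1.27 for SQSTM1. TMEM184A shares 809 exon bases with MAFK and had at most 4 counts in any library. AGPS shares 54 exon bases with NFE2L2 on the opposite strand. It had 2519 to 2603 counts with empty vector, 2664 to 2956 with NRF1, 2691 to 3108 with NRF2 and 2402 to 2866 with NRF3. The NRF1 and NRF2 counts thus both lay above those of the controls, and no test result is given for AGPS.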

How the data were processed

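RNA-seq was analysed in 12 HEK293T libraries, in groups of 3. The authors sequenced total RNA at BGI and estimated abundance in the DNASTAR Lasergene Genomics Suite on build GRCh37.p13, with a version, counting rules and annotation not given in the sources used here. Per library the deposited values are estimated counts with no normalization, written as 0.009 where there is no count (45.8% of values). They were rounded to whole counts, and 26 genes named by a number were kept.

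The filterByExpr function, at a minimum count of 10, kept 15135 genes. One model of the 4 groups was fitted with edgeR 4.0.16 in R 4.3.3 (quasi-likelihood, robust dispersion, trimmed mean of M values), tested two-sided and adjusted by Benjamini-Hochberg over all tested genes. The study's methods name an unequal variance t-test, which was not used on counts here, and its results name a DESeq-based analysis. Alternatives were DESeq2 1.42.0, limma 3.58.1 (voom), other scalings and filters, the compared groups alone, the replicate block and each library left out. Leaving out the NRF3 libraries, the median transcript length and all settings for the gene lists were added after the data were seen.

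The genes and lists were chosen with earlier results of these data known. Named genes were the 10 described, the called genes of a list (at most 4, by adjusted p), and for each called gene the 3 most alike by log2 CPM (prior count 2). Promoter windows came from RefSeq (GRCh38.p14), and transcript lengths and overlaps from GENCODE v29. The results of 2 listed genes, left out for a reason other than their values, are not reported here.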

Additional observations from a re-analysis of the deposited data

How the results depend on the processing

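The count of genes called with NRF2 against empty vector stayed at 5 under all 22 alternatives, as it did with NRF2 against NRF1, and the replicate block left every count of called genes as it was (5 in each NRF2 comparison and 0 in the others). Deviations from the group means correlated at -0.258 to 0.0840 over 18 same-numbered pairs of libraries. Such correlations cannot show whether same-numbered libraries were made together. The 0 genes called with NRF1 against empty vector became 1 with DESeq2 (KEAP1), 3 with limma voom (KEAP1, NFE2L3 and SQSTM1), 2 when the fit held the compared groups alone (KEAP1 and NFE2L3), 1 without the NRF3 libraries, and 0 to 1 with each library left out in turn, the 1 being KEAP1 without NRF3 replicate 2 or NRF3 replicate 3. The 0 genes called with NRF1 against NRF3 became 2 with limma voom and 0 to 2 with each library left out, the 2 (NFE2L1 and SQSTM1) without NRF3 replicate 2, while over all genes the calls went from 60 to 1204 and 1346. NRF2 against NRF3 gave 6 with limma voom and without NRF3 replicate 2, where NFE2L1 was added, while over all genes the calls went from 782 to 2176 and 3086. No called value changed sign. BACH2 could not be tested at a minimum count of 50. Over all genes, those called with NRF1 against empty vector numbered 265, but 158 with the replicate block, 412 without a filter, 427 with DESeq2, 1200 without the NRF3 libraries, 1989 with the compared groups alone and 2881 with limma voom. They numbered 33 to 589 with each library left out in turn, lowest without NRF1 replicate 3 and highest without NRF3 replicate 2, and leaving out NRF1 replicate 2 gave 44, NRF3 replicate 3 gave 532, and a single control library (replicate 1, 2 or 3) gave 47, 84 or 42. With NRF2 against empty vector they numbered 1588, but 1174 with the replicate block, 1393 at a minimum count of 50, 2719 with the compared groups alone, 2771 without the NRF3 libraries, 3116 with limma voom and 795 to 2269 with each library left out, of which 795 to 1031 without any 1 empty vector or NRF2 library. Between NRF1 and NRF3 they numbered 7 with the replicate block, 5 with the compared groups alone, 35 with library totals only, 125 without a filter, 130 with DESeq2 and 4 to 1346 with each library left out. Between NRF2 and NRF3 they numbered 298 with the compared groups alone and 354 to 3086 with each library left out, and between NRF2 and NRF1 189, but 294 without a filter, 300 with the compared groups alone, 483 without the NRF3 libraries, 620 with limma voom and 133 to 330 with each library left out. With NRF3 against empty vector they numbered 4, 3 to 6 with each library left out, 8 with DESeq2 and 10 with limma voom. Low counts limit BACH2, MAFK and MAFF, and also MAFG in the groups other than NRF2. The cause of the shifts in the numbers called was not tested.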
